A study of Homo sapiens with 4 samples.

Results

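Matrix metalloproteinases (MMPs) are zinc-dependent enzymes that cut collagens, laminins, fibronectin and other proteins of the extracellular matrix, and tissue inhibitors of metalloproteinases (TIMPs) are small proteins that block them. The group described here holds 10 genes, chosen by symbol: the 7 enzyme genes MMP1, MMP2, MMP3, MMP7, MMP9, MMP10 and MMP14 and the 3 inhibitor genes TIMP1, TIMP2 and TIMP3. All 10 had a row among the 25411 genes of each library. RNA came from BEAS-2B, an established human bronchial epithelial line, cultured for 72 h with 5 µM cadmium chloride (2 libraries) or for 72 h without added cadmium (2 control libraries). The study's title concerns SNAI1 and the microRNA miR-30e in cadmium-exposed cells, and the comparison asked which transcripts differed with the metal.

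MMPs are made as inactive precursors, and a cysteine in the propeptide holds the catalytic zinc until the propeptide is removed. Collagenases such as MMP1 open fibrillar collagen, stromelysins such as MMP3 and MMP10 cut a wide range of matrix proteins and activate other precursors, and gelatinases (MMP2 and MMP9) degrade denatured and basement membrane collagen. MMP14 sits in the plasma membrane, where TIMP2 bound to it helps to recruit and activate pro-MMP2. In the airway these enzymes are known for wound repair, remodelling and the tissue damage of smoking-related disease. Many of their genes are switched on through AP-1, a factor made of FOS and JUN proteins.

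Reads assigned to genes numbered 29937242 and 15537382 in cadmium replicates 1 and 2, and 26529403 and 8609243 in control replicates 1 and 2. A level of 3 reads was 0.098 to 0.190 CPM in the cadmium libraries and 0.115 to 0.356 CPM in the controls, so the shallower control limits every weakly expressed member. CPM are depth-scaled read counts (TMM), and RPKM are the authors' values scaled to library size and gene length, used to compare genes of different length. Replicate counts varied beyond sampling error (chi-square per gene 7.74 for the cadmium pair and 11.5 for the control pair). The labels do not state whether replicates are separate cultures, and p-values therefore reflect a spread between libraries that may be only technical. The labels place the cadmium libraries under experiment 2 and the controls under experiment 1, and experiment and treatment cannot be told apart. Epithelial markers were mixed in level. Simple keratin KRT8 stood at 587 and 617 CPM with cadmium and 540 and 649 CPM in control, while the simple keratin KRT19 reached at most 0.229 CPM, E-cadherin (CDH1) at most 0.949 CPM and the basal keratin KRT5 at most 0.038 CPM in any library. KRT18 stood at 247 and 285 CPM with cadmium and 204 and 267 CPM in control. KRT7 was at 246 and 288 CPM with cadmium and 523 and 558 CPM in control. EPCAM was low, at 5.94 and 5.06 CPM with cadmium and 2.04 and 2.38 CPM in control. On the log2 scale KRT7 fell by 1.02 with cadmium and EPCAM rose by 1.36. Some genes known from fibroblasts were also abundant. COL1A1 stood at 3263 and 3068 CPM with cadmium and 4379 and 3538 CPM in control. THY1 stood at 588 and 543 CPM with cadmium and 548 and 536 CPM in control. Other fibroblast genes were weak or absent. COL1A2 reached at most 2.23 CPM, LUM 0.392 CPM and PDGFRA 0.063 CPM in any library, and COL3A1 and DCN had 0 reads.

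The promoters below are shown because they contrast members at the ends of the range of levels: MMP10 and MMP7 had 1 and 0 reads over all libraries, while MMP14 and TIMP1 were strongly expressed. RefSeq promoter sequences (GRCh38.p14) were matched for 5 of the 10 members, MMP7, MMP10, MMP14, TIMP1 and TIMP3. None was matched for MMP3, MMP1, MMP2, MMP9 or TIMP2. Each line gives the 250 bases before the annotated transcript start, 5′ to 3′ on the gene's strand. Capitals mark matches on either strand. The AP-1 word searched was TGANTCA. The TATA box searched was TATAAA. The GC box searched was GGGCGG. The metal response element core, which had no match in these 4 windows, was searched as TGCACNC. Its second spelling, with G in place of A in the middle, was searched too. No motif match overlapped another.
MMP10, chr11:102780629-102780878, - strand: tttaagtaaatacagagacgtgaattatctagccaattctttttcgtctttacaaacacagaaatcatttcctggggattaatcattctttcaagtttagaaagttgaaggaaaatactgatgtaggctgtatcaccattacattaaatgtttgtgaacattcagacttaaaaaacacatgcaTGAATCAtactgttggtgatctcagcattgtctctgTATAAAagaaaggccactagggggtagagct
MMP7, chr11:102530748-102530997, - strand: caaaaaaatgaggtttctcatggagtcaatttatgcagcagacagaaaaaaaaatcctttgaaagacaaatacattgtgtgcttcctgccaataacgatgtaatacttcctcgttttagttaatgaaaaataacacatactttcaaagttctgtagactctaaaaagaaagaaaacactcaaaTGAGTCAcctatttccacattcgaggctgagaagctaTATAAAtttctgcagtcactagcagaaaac
MMP14, chr14:22836335-22836584, + strand: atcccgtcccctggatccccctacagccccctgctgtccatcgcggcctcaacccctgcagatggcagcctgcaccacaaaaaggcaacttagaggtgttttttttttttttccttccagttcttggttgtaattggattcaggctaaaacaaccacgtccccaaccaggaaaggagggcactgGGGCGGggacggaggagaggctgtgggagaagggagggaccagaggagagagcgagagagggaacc
TIMP1, chrX:47582186-47582435, + strand: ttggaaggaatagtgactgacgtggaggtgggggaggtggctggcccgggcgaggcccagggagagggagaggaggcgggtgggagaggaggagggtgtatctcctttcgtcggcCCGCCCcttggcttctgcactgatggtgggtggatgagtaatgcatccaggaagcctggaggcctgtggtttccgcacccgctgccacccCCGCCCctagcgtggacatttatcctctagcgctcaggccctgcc

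MMP10 and MMP7 shared the same layout, with an AP-1 match that began 67 bases before the start in both, and a TATA box that began 31 bases before it in MMP10 and 30 bases before it in MMP7. The MMP14 window held 1 GC box and the TIMP1 window 2, with no match to the AP-1 or TATA word. Only exact words were counted. A near spelling of the AP-1 word, such as tgagtaa in the printed TIMP1 window, was not, so no match does not mean no AP-1 element. TIMP3, not printed, held 5 GC boxes and none of the other words. Promoters were also matched for 10 of the 17 other family genes. MMP27, with 0 reads, held none of the words, and MMP23B, at most 0.192 CPM, held 2 GC boxes. MMP8, MMP21 and MMP26, with 0 reads, held a TATA box without an AP-1 match. MMP20, with 1 read in all, held both, and MMP11, MMP15, MMP24 and TIMP4 held GC boxes only. Among 27303 RefSeq promoters of this length, 6.85% held the AP-1 word, 11.4% the TATA box, 41.3% the GC box and 24.3% the metal response element core. The windows also differed in base composition, with 34.4% and 33.6% G or C for MMP10 and MMP7 and 56.8%, 64.8% and 72.4% for MMP14, TIMP1 and TIMP3. A match is a description of the letters and not a site shown to be bound.

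Of the group, MMP3 was higher with cadmium, and no other member passed the test in either direction. The inhibitor genes TIMP1 and TIMP2 and the membrane enzyme gene MMP14 were the most abundant transcripts in all 4 libraries and had fold changes near 0. MMP1 and MMP2 had positive fold changes with wide intervals. MMP9, MMP10 and MMP7 were at or near the limit of detection. Reads sufficed for a test in 7 of the 10 genes (edgeR quasi-likelihood test, 13663 genes tested). Among those 7, 1 was higher and 0 were lower at a Benjamini-Hochberg adjusted p under 0.05. Of all tested genes 8.85% were called higher and 7.66% lower. The median log2 fold change of the 7 was 0.017, against 0.0019 over all tested genes. With DESeq2 and with limma-voom the calls were also 1 higher and 0 lower, and with edgeR 1 of the 7 had an unadjusted p under 0.05.

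MMP3 encodes stromelysin-1, which cuts laminin, fibronectin and proteoglycans and activates pro-MMP1 and pro-MMP9. The gene lies on chromosome 11 at 102706529 to 102714342 (hg19, minus strand). It had 227 and 117 reads in the cadmium libraries, against 28 and 6 reads in the controls. On the RPKM scale its level was 3.63 and 3.58 with cadmium, against 0.513 and 0.340 in control. Both cadmium libraries stood well above both controls, and the cadmium libraries lay close together. Scaled for depth, MMP3 averaged 7.41 ± 0.0076 CPM with cadmium and 0.894 ± 0.257 CPM in control (SD, n = 2 each). Counts of 227 and 117 reads carry more counting error than the cadmium SD shows, so that SD is not the precision of the level. The log2 fold change was 2.93 (SE 0.28, 95% interval 2.30 to 3.57, edgeR adjusted p = 0.00234). It ranked 38 among the 13663 tested genes by log2 fold change. Group read totals stood in a depth-scaled ratio of 7.51 (95% interval 5.27 to 11, counting error only). In the authors' deposited table MMP3 has a mean of 3.61 RPKM with cadmium and 0.426 RPKM in control, with a log2 ratio given as 1.59 (adjusted p = 2.89e-09). Log ratios of weakly expressed genes in that table are smaller than the ratio of its mean RPKM.

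MMP3 was called higher in each of the 16 other settings that were run, among them each library left out in turn. With 1 library left out its log2 fold change lay between 2.77 and 3.36. In bulk RNA such a difference cannot separate more expressing cells from more RNA per cell.

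MMP1, interstitial collagenase, lies 37.6 kb from MMP3 on chromosome 11, at 102660642 to 102668966 (minus strand). It had 156 and 88 reads in the cadmium libraries, against 83 and 0 reads in the controls. Its RPKM was 2.25 and 2.4 with cadmium, against 1.38 in control replicate 1 and 0 in control replicate 2. The cadmium libraries lay close together and stood above both controls, but the controls differed so much that no change was called. The log2 fold change was 1.37 with a wide 95% interval from -1.39 to 4.12 (SE 0.95, edgeR adjusted p = 0.405). At the level of control replicate 1, control replicate 2 would hold 26.8 MMP1 reads, and a count of 0 allows up to 3.69 (upper 95% Poisson limit). Of 11816 genes with at least 50 reads in control replicate 1, 5 had 0 reads in control replicate 2, MMP1 among them. The cause of this absence was not tested.

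Against control replicate 1 alone, the MMP1 log2 fold change was 0.73 (edgeR adjusted p = 0.0525). Against control replicate 2 alone, MMP1 passed the test (edgeR adjusted p = 0.00036). The authors' deposited table lists MMP1 at a log2 ratio of 0.0556 (adjusted p = 0.754).

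**Figure D1:**
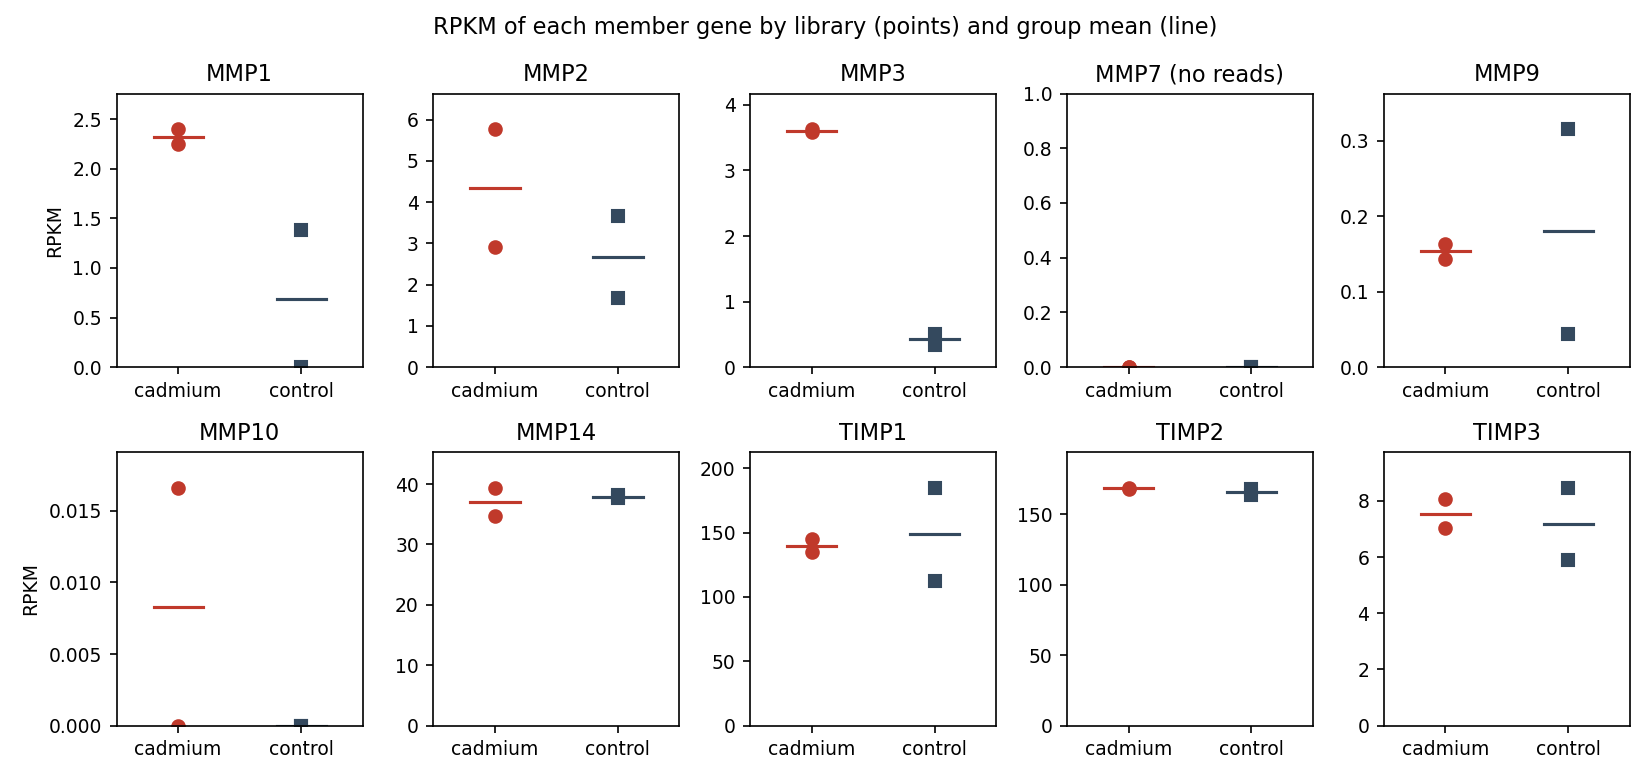
RPKM of the 10 genes in each library, with 1 panel per gene, cadmium libraries as circles, controls as squares and group means as lines, and a separate vertical scale in every panel. MMP3 shows groups far apart (3.63 and 3.58 RPKM with cadmium, 0.513 and 0.340 RPKM in control), while for MMP1 the controls lie at 1.38 and 0 RPKM.

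MMP10, MMP7 and MMP12 sit in the same cluster on chromosome 11, 9 MMP genes within 435 kb. MMP10, stromelysin-2 and the closest relative of MMP3, had 1 read in cadmium replicate 1 and 0 reads in the other 3 libraries. It lies 9.28 kb from MMP1. MMP7, matrilysin, an epithelial enzyme of the airway, had 0 reads in all 4 libraries. A level of 3 reads is 0.356 CPM in the shallowest library and 0.098 CPM in the deepest. The Poisson limit used for MMP1, 3.69 reads for a count of 0, lies slightly higher. MMP12, the macrophage elastase, is the neighbour of MMP3 on its other side and had 9 and 5 reads with cadmium, against 2 and 0 reads in control. Its depth-scaled ratio was 5.2 (95% interval 1.19 to 47.1, counting error only), and that interval leaves out variation between replicates. The gene was too weakly expressed for the main test. Without the read filter its log2 fold change was 2.29, and it was not called (edgeR adjusted p = 0.177). Of the remaining cluster genes, MMP20 had 1 read in all, and MMP27, MMP8 and MMP13 had none. Reads in this cluster therefore came almost entirely from the adjacent pair MMP1 and MMP3, with 327 and 378 reads over the 4 libraries.

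Neither gelatinase gene was called with the 4 libraries and group as the only term. MMP2 (chromosome 16, 55515475 to 55540586, plus strand) had 695 and 183 reads with cadmium, against 175 and 124 reads in control. Its RPKM of 5.77 and 2.92 with cadmium overlapped the control values of 1.67 and 3.67. Cadmium replicate 2 lay below control replicate 2, so the groups were not separated. The log2 fold change was 0.79 (SE 0.55, 95% interval -0.77 to 2.36, edgeR adjusted p = 0.399). It was 0.17 without cadmium replicate 1 and 1.38 without control replicate 2, and did not pass in either case. It passed in 1 of 16 alternatives, a crossed replicate block chosen after seeing the data (edgeR adjusted p = 0.0163).

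MMP9 (chromosome 20, 44637548 to 44645200, plus strand), a gelatinase made largely by neutrophils and by activated epithelium, was close to the detection limit. It had 13 and 6 reads with cadmium, against 22 and 1 reads in control, and too few for the test. Its level was 0.425 and 0.380 CPM with cadmium, against 0.845 and 0.119 CPM in control. The cadmium libraries lay between the controls, and the depth-scaled ratio of read totals was 0.613 (95% interval 0.316 to 1.18, counting error only).

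MMP14 (chromosome 14, 23305743 to 23316808, plus strand) was the dominant enzyme transcript of the group. Its RPKM was 39.4 and 34.7 with cadmium, against 37.7 and 38.1 in control. The controls lay between the cadmium libraries. The log2 fold change was -0.063 with a 95% interval from -0.27 to 0.14 (SE 0.089, edgeR adjusted p = 0.664).

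Within the group, the inhibitor genes had a higher RPKM than any enzyme gene, except that MMP14 exceeded TIMP3. TIMP2 (chromosome 17, 76849060 to 76921472, minus strand), the partner of MMP14 in pro-MMP2 activation, was the most constant member, at 168 and 169 RPKM with cadmium and 168 and 164 RPKM in control. Its 95% interval for the log2 fold change ran from -0.17 to 0.16 (estimate -0.0074, SE 0.073, edgeR adjusted p = 0.956). That interval was the narrowest among the tested members, with the interval of MMP14 (-0.27 to 0.14) close to it in width. TIMP1 (chromosome X, 47441691 to 47446190, plus strand) inhibits most secreted MMPs and is a weak inhibitor of MMP14. It stood at 145 and 135 RPKM with cadmium, against 185 and 112 RPKM in control. Both cadmium libraries lay between the controls, and the log2 fold change was -0.13 (SE 0.25, 95% interval -0.79 to 0.53, edgeR adjusted p = 0.762).

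The TIMP1 value depended on the control library used. It was -0.44 without control replicate 2, which passed the test (edgeR adjusted p = 0.00303), and 0.28 without control replicate 1 (edgeR adjusted p = 0.0833).

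TIMP3 (chromosome 22, 33196803 to 33259028, plus strand) binds to the matrix and also inhibits ADAM17, the sheddase of TNF. It had 7.03 and 8.07 RPKM with cadmium, against 8.47 and 5.88 RPKM in control. The groups overlapped, and the log2 fold change was 0.017 (SE 0.17, 95% interval -0.38 to 0.42, edgeR adjusted p = 0.958).

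Spans of 5 members overlap the row of another gene in hg19, and the sources used here do not say whether counting used strand. The overlapping rows held few reads: SYN1, antisense to TIMP1, had 11 and 3 reads with cadmium and 6 and 1 in control. SYN3, antisense to TIMP3, had 1 read in all, and WTAPP1, antisense to MMP1 and MMP3, had none. The row overlapping TIMP2 on its own strand, LOC100653515, had at most 13 reads in a library.

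Because the study concerns miR-30e, the 3′ UTRs of the group were searched for its seed match. The mature miRNA (RefSeq, GRCh38.p14, chr1:40754371-40754392, + strand) is shown with its seed, bases 2 to 8, in capitals, and the single site found in the group lies in TIMP3 (GENCODE v29 transcript sequence), with the seed match in capitals.
hsa-miR-30e-5p: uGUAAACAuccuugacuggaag
TIMP3 site: tttcgtagcacTGTTTACagttttcctcca

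The word TGTTTAC occurred in 1 of the 10 members, TIMP3, whose 3′ UTR of 3666 bases is the longest of the group. Over tested genes with a 3′ UTR, 2166 of 12044 (18%) held it, with a median 3′ UTR length of 1349 bases. TIMP3 was not called, as given above. The 3′ UTR of MMP3, of 325 bases, did not hold the word.

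**Figure D2:**
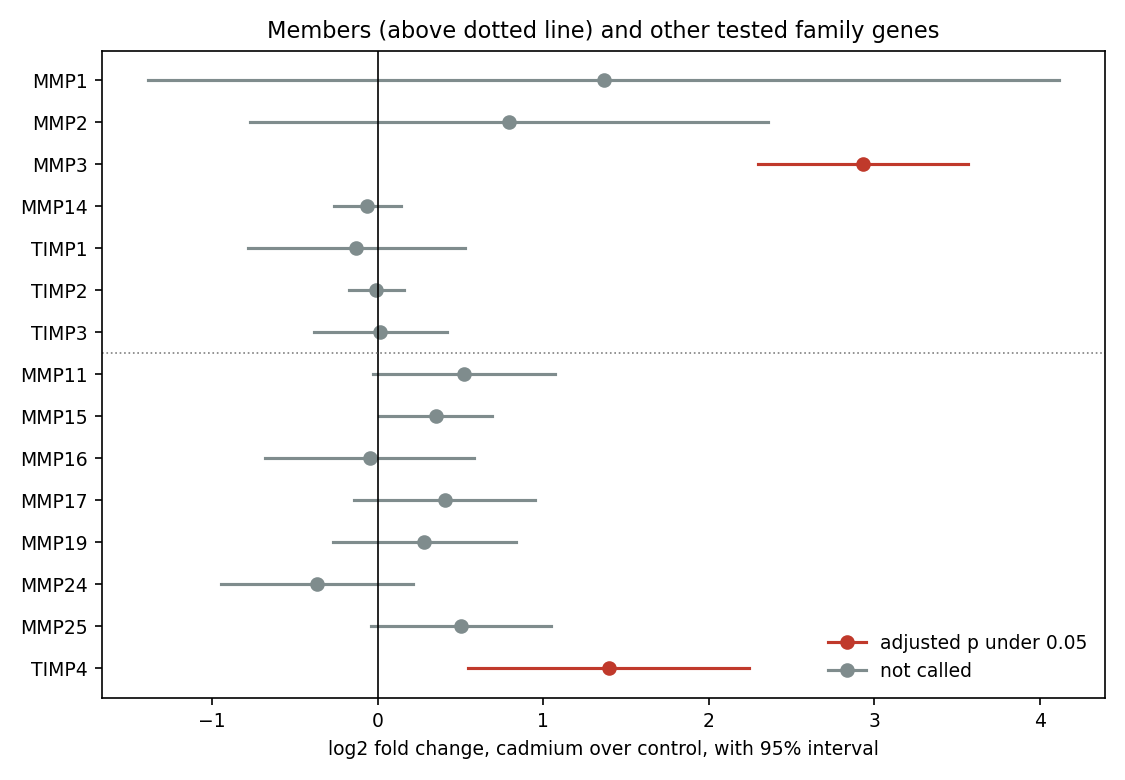
Log2 fold changes of the 7 tested members (above the dotted line) and the 8 other tested genes of the family, as points with 95% intervals, in red where the adjusted p was under 0.05. MMP3 stands at 2.93 and TIMP4 at 1.40, and the intervals of TIMP2 and MMP14 are narrow around 0.

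Per length, the order of levels with cadmium was TIMP2 (169 ± 0.564 RPKM), TIMP1 (140 ± 7.01), MMP14 (37.0 ± 3.31), TIMP3 (7.55 ± 0.736), MMP2 (4.35 ± 2.01), MMP3 (3.61 ± 0.032), MMP1 (2.32 ± 0.106) and MMP9 (0.153 ± 0.013; SD, n = 2 throughout). In control it was TIMP2 (166 ± 3.03 RPKM), TIMP1 (149 ± 51.3), MMP14 (37.9 ± 0.288), TIMP3 (7.18 ± 1.83), MMP2 (2.67 ± 1.41), MMP1 (0.690 ± 0.976), MMP3 (0.426 ± 0.122) and MMP9 (0.180 ± 0.192). The order differed between the groups in the places of MMP3 and MMP1. With cadmium, the neighbours MMP2 and MMP3 were not separated beyond their spread. In control, TIMP2 was not separated from TIMP1, nor MMP1 from MMP3. MMP3 and MMP9 were separated by little in control, where the lower MMP3 library had 0.340 RPKM and the higher MMP9 library 0.315. TIMP2 and TIMP1 ranked 329 and 455 of 25411 genes by mean RPKM with cadmium and 394 and 460 in control. MMP3 ranked 9338 with cadmium and 12789 in control.

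Within the enzyme transcripts, MMP14 made up 76.9% and 79.3% of the summed RPKM of the 7 MMP genes with cadmium, against 90.7% and 90.4% in control. The groups did not overlap. The summed RPKM of MMP1, MMP2 and MMP3, which are secreted, was 11.7 and 8.91 with cadmium, against 3.56 and 4.01 in control. TIMP genes exceeded MMP genes throughout, with a ratio of summed RPKM of 6.25 and 7.13 with cadmium and 8.69 and 6.69 in control. That ratio overlapped between the groups, and the TIMP share of all summed RPKM averaged 87.0% ± 1.05 with cadmium and 88.3% ± 1.90 in control (SD, n = 2 each). These sums describe transcripts of chosen genes and carry no test.

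**Figure D3:**
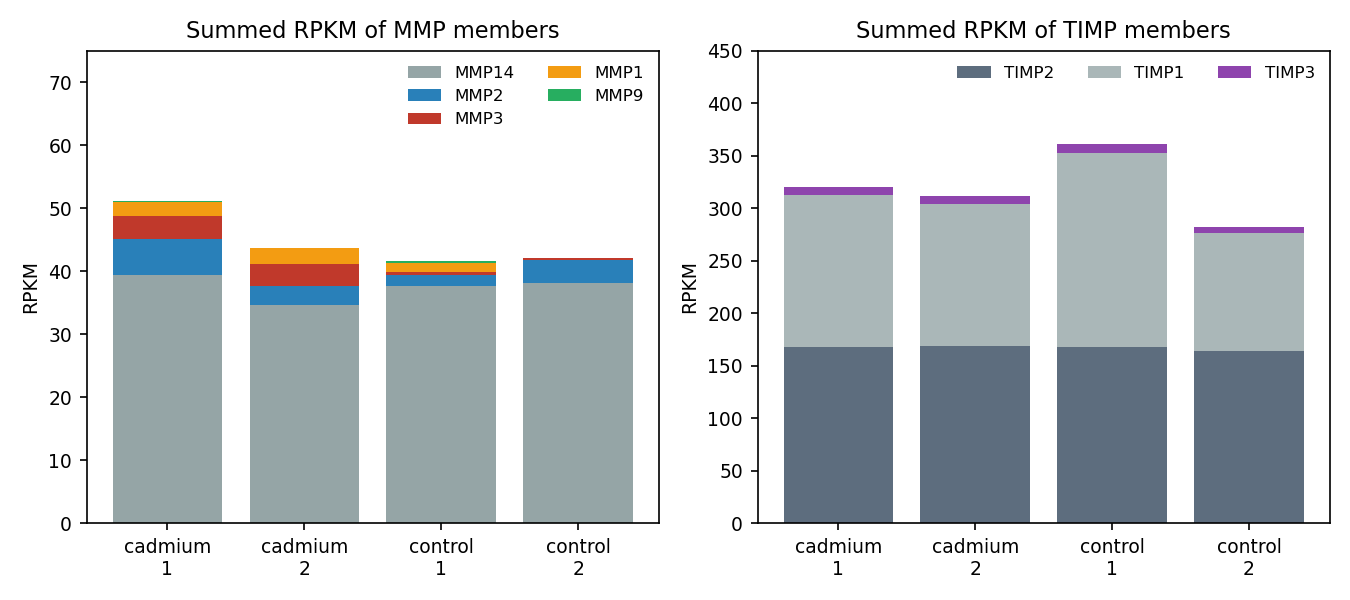
Stacked RPKM of the MMP members (left) and the TIMP members (right) in each library, with separate vertical scales that start at 0. The part of the MMP bar that is not MMP14 is larger in both cadmium libraries, where MMP14 makes up 76.9% and 79.3%, than in the controls, where it makes up 90.7% and 90.4%.

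Across the 7 tested members, 2 (MMP1 and MMP3) had both cadmium libraries above both controls in CPM, and 0 had both below. Of all tested genes, 31.3% had both cadmium libraries above and 30.8% had both below, so the count above is near its background and the count below is under it. For MMP2, MMP14, TIMP1, TIMP2 and TIMP3 the groups overlapped.

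Another 17 genes complete the family, and 8 of them could be tested. Of these 8, 1 was called higher and 0 lower, beside 8.85% higher and 7.66% lower over all tested genes. TIMP4, an inhibitor best known from heart and brain, rose by 1.40 on the log2 scale (SE 0.37, edgeR adjusted p = 0.0387). It had 69 and 28 reads with cadmium, against 18 and 8 in control. Its level was 2.25 and 1.77 CPM with cadmium, against 0.691 and 0.950 CPM in control, so it was low in every library. TIMP4 missed the threshold with DESeq2 (adjusted p = 0.185), with the replicate number as a block (edgeR adjusted p = 0.0546) and without any of 3 libraries (edgeR adjusted p from 0.101 to 0.315); the exception was control replicate 2, without which it passed (edgeR adjusted p = 0.0176). The 7 enzyme genes tested were MMP11, MMP15, MMP16, MMP17, MMP19, MMP24 and MMP25, and none passed. Their log2 fold changes lay between -0.36 for MMP24 and 0.52 for MMP11. By mean RPKM the most abundant among them was MMP19, at 9.65 and 6.75 RPKM with cadmium and 5.47 and 8.12 RPKM in control. It was not separated from MMP15, at 8.81 and 6.98 RPKM with cadmium and 6.64 and 5.39 RPKM in control. MMP8, MMP13, MMP21, MMP26 and MMP27 had 0 reads in all libraries. The median log2 fold change of the 8 was 0.38, against 0.0019 over all tested genes.

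Genes that activate, anchor or inhibit MMPs were measured next. Among the 13 with a test, 3 were higher, 2 were lower and 8 were not called, beside the 16.5% of all genes called in either direction, and their median log2 fold change was 0.11. RECK, a membrane-anchored inhibitor of MMP2, MMP9 and MMP14, rose by 0.57 (SE 0.13, edgeR adjusted p = 0.0229), with 22.4 and 22.1 CPM with cadmium and 15.2 and 14.7 CPM in control. LRP1, the endocytic receptor that clears MMP and TIMP complexes, rose by 0.62 (SE 0.13, edgeR adjusted p = 0.0241). PLAUR, the urokinase receptor, rose by 0.50, while the urokinase gene PLAU had a log2 fold change of -0.0083. THBS2, a matricellular protein that promotes MMP2 uptake, fell by 0.71 on the log2 scale (SE 0.12, edgeR adjusted p = 0.0112). PCSK7, a proprotein convertase, fell by 0.36 (edgeR adjusted p = 0.0343), a call held in 8 of 16 alternatives and lost with the replicate number as a block (edgeR adjusted p = 0.0516). FURIN, the convertase that activates pro-MMP14, had a log2 fold change of 0.11 and BSG, an inducer of MMPs, of -0.018, and neither passed. Without cadmium replicate 1, 1 of these genes was called in place of 5, and without cadmium replicate 2, 3 were.

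Transcription factor genes known to act on MMP promoters numbered 17, all tested: 2 were higher, 0 lower and 15 not called, with a median log2 fold change of 0.15. Of all tested genes 8.85% were higher and 7.66% lower, so 2 of 17 is near the background. FOSB, an AP-1 subunit, rose by 1.24 (SE 0.33, edgeR adjusted p = 0.0410; called in 11 of 16 alternatives), with 10.6 and 7.85 CPM with cadmium and 4.99 and 2.26 CPM in control. SP1, which binds GC boxes, rose by 0.44 (SE 0.088, edgeR adjusted p = 0.0157). Of the other AP-1 genes, FOS, JUN and FOSL1 differed strongly between the controls, while FOSL2 did not (257 and 280 CPM with cadmium, 249 and 245 CPM in control). FOS stood at 25.8 and 17.1 CPM with cadmium and 17.2 and 2.26 CPM in control, and JUN at 475 and 388 CPM with cadmium and 414 and 177 CPM in control. FOSL1 had 85.9 and 89.4 CPM with cadmium, against 183 and 74.95 CPM in control. For these 3 genes control replicate 2 was the lowest library on the CPM scale. The same held for FOSB, JUNB, MMP1, MMP3, MMP9, TIMP1 and TIMP3. It also held for the factor genes FOSL2, ETS1, ETS2, ETV4, ETV5, RUNX1, RUNX2 and STAT3. It did not hold for JUND, SP1, RELA, NFKB1, MMP2, MMP14 and TIMP2. How often control replicate 2 was lowest over all genes was not counted. Whether the genes with this order share a reason for it was not tested. Without control replicate 1, 6 of the factor genes were called, without control replicate 2, 4 were, and without cadmium replicate 1, 1 was.

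Among 8 tested cytokine and growth factor genes that are known to change MMP expression, 0 rose and 2 fell, beside 8.85% higher and 7.66% lower over all tested genes. IL1B, a strong inducer of MMP1 and MMP3 in many cells, fell by 0.89 on the log2 scale (SE 0.17, edgeR adjusted p = 0.0139), with 16.4 and 12.8 CPM with cadmium and 30.1 and 23.9 CPM in control. TGFB2 fell by 0.70 (edgeR adjusted p = 0.0276). The median log2 fold change of the 8 was -0.30, and 5 were called without control replicate 2 and 1 without either cadmium library. Of 10 tested genes for matrix proteins that MMPs cut, 1 rose and 1 fell, near the 16.5% of all tested genes called in either direction. COL7A1, the anchoring fibril collagen of epithelial basement membranes, rose by 0.71 (SE 0.11, edgeR adjusted p = 0.00723), with 278 and 278 CPM with cadmium and 152 and 189 CPM in control. COL4A1, a basement membrane collagen, fell by 0.39 (SE 0.11, edgeR adjusted p = 0.0454), a call held in 7 of 16 alternatives (adjusted p up to 0.205). Their median was -0.30, and the number called was 6 without control replicate 2 and 1 without either cadmium library.

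MMP9 and MMP12 are best known from neutrophils and macrophages, so markers of those cells stand beside them. Of 8 leukocyte and macrophage markers 3 were tested and 2 were called higher, beside 8.85% of all tested genes. CD68, a lysosomal protein not limited to leukocytes, rose by 0.59 (edgeR adjusted p = 0.00857). CD14 was not called (log2 fold change 0.11, edgeR adjusted p = 0.826). Its groups overlapped, at 11.2 and 7.40 CPM with cadmium and 6.80 and 11.4 CPM in control. ITGAM, with 30 and 14 reads with cadmium and 8 and 2 in control, rose by 1.69 (edgeR adjusted p = 0.0490), a call held in 4 of 13 alternatives and lost with the replicate number as a block (edgeR adjusted p = 0.0781). The summed level of the list was 95.9 and 89.5 CPM with cadmium and 63.3 and 64.3 CPM in control, most of it CD68. The pan-leukocyte gene PTPRC was at 0.033 and 0.127 CPM with cadmium and 0.038 and 0 CPM in control, and LYZ, CD3E and MS4A1 had 0 reads in all libraries. Of 8 markers of fibroblasts, a usual source of MMP3, 4 were tested and 0 were called. Their sum was 4039 and 3818 CPM with cadmium and 5091 and 4260 CPM in control. COL1A1 and THY1, given above, and PDGFRB, at 187 and 205 CPM with cadmium and 162 and 185 CPM in control, made up nearly all of it. Log2 fold changes were -0.32 for COL1A1 (edgeR adjusted p = 0.0690) and 0.18 for PDGFRB (edgeR adjusted p = 0.225). COL3A1 and DCN had 0 reads in every library, and PDGFRA had at most 0.063 CPM. The part of these transcripts in the MMP3 result was not tested. Of 5 endothelial markers TIE1 was the only 1 tested and rose, the sum of the list was 3.79 and 3.48 CPM with cadmium and 1.31 and 1.19 CPM in control, and PECAM1 had 0 reads. Differentiated airway markers summed to 1.47 and 0.823 CPM with cadmium and 0.538 and 0.832 CPM in control, with 0 of the 1 tested called (TPPP3, log2 fold change 1.10, edgeR adjusted p = 0.160).

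The genes whose profile over the 4 libraries was nearest to that of MMP3 were SP140, RAB11FIP4 and ITGAX, at Euclidean distances of 0.135, 0.262 and 0.414 in centred log2 CPM. RAB11FIP4 had 6.86 and 6.20 CPM with cadmium and 0.845 and 0.713 CPM in control, almost the values of MMP3. SP140 was far weaker, with 18 and 9 reads with cadmium and 2 and 0 reads in control. ITGAX had 117 and 41 reads with cadmium and 12 and 2 reads in control. Likeness over 4 libraries describes these values only.

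**Figure D4:**
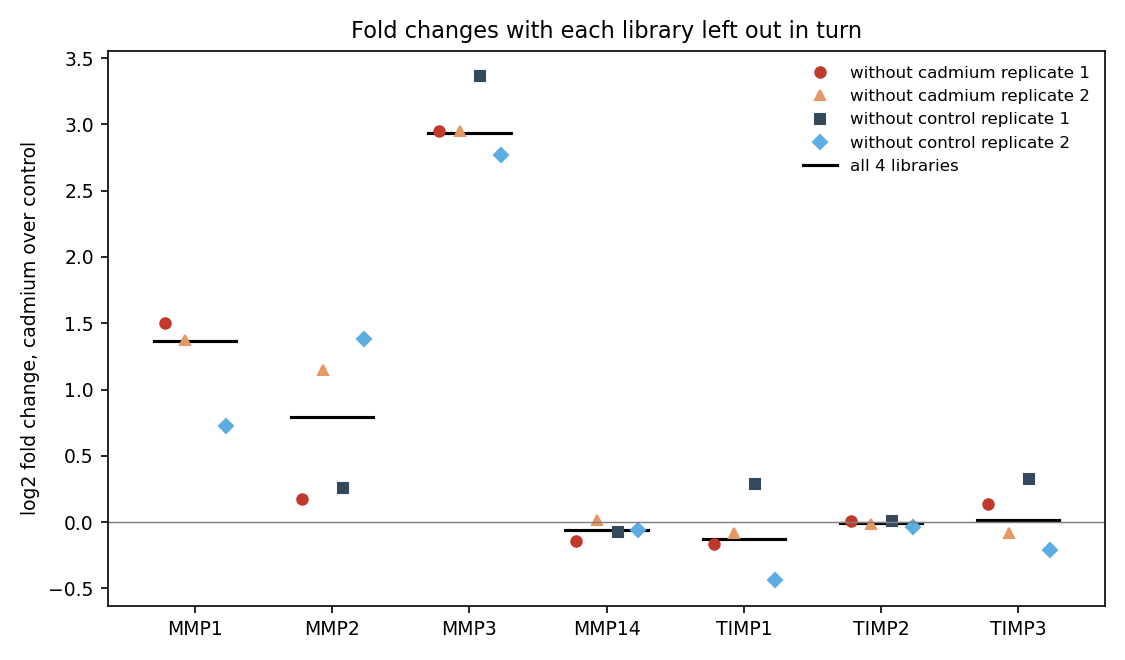
Log2 fold change of each tested member with all 4 libraries (black line) and with each library left out in turn (symbols). MMP3 stays between 2.77 and 3.36, TIMP1 moves from -0.44 to 0.28 with the control library left out, and the MMP1 value without control replicate 1 is not drawn, since the remaining control had 0 reads.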

How the data were processed

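Gene-level values of 4 BEAS-2B libraries, 2 with cadmium and 2 controls, were used. Per the file headers, each library's deposited table holds unnormalized whole-number counts per RefSeq gene beside the authors' RPKM. The authors' deposited comparison table gives group mean RPKM, a log ratio read here as log2, and raw and adjusted p-values. The submitters' processing notes name STAR 2.4, DESeq2, DESeq and hg19 without their roles. The read counter, annotation release and strand handling were not given in the sources used here. Protocols in the labels name a column-based RNA kit and a TruSeq library kit.

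Counts were tested with R 4.3.3 and edgeR 4.0.16 (filterByExpr, TMM, robust glmQLFit, glmQLFTest, group as the only term), adjusted by Benjamini-Hochberg over 13663 genes with a threshold of 0.05. The SE comes from the F statistic, and intervals and floors of 3 reads use a 95% level. Rows were joined by RefSeq identifier. File coordinates are given 1-based. The procedure was tested on simulated data, where the share of false calls exceeded the 0.05 threshold. How those false calls were spread over adjusted p-values was not recorded. The limit therefore applies to all calls, those close to the threshold included. Alternatives were other scalings and filters, DESeq2 1.42.0, limma-voom 3.58.1, limma on log2(RPKM + 0.1) and log2(RPKM + 1), thinning to equal depth, a replicate block and leaving out each library. The members and lists were chosen with earlier results of these data known. All members are named. From each other list up to 4 called genes are named, taken by size of change; a list with none called gives its 2 lowest p-values. For the member with the smallest p the 3 genes with the nearest profile are named. AP-1 genes, untested family genes, the other list and marker genes and the fifth called regulator were added after their values were seen.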

Additional observations from a re-analysis of the deposited data

How the results depend on the processing

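MMP3 was called higher in all 16 alternatives, with log2 fold changes from 1.69 (log2(RPKM + 1), where the pseudocount shrinks low genes) to 3.36. The number of members called higher was 1 to 2 and of those called lower 0 to 1 with 1 library left out, and 1 and 0 under each other alternative except the crossed pairing below. The labels give both groups replicate numbers 1 and 2 but do not say that a number pairs libraries, and deviations of same-numbered libraries had a correlation of -0.133. With the replicate block 1073 genes were higher and 811 lower, 1 member was higher, 0 other MMP and TIMP genes and 5 substrate genes were called. With the pairing crossed, an alternative chosen after seeing the data, 2 members were higher, 0 lower, and 1551 genes were higher and 1471 lower.

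Over all genes 1209 were higher and 1046 lower. These numbers were 719 and 554 with log2(RPKM + 0.1), 777 and 554 with log2(RPKM + 1), and 1445 and 682 with library size alone (67.9% higher, against 53.6%). With 1 library left out they ranged from 369 to 1977 and from 235 to 1791. Leaving out 1 library gave 0 to 2 other family genes, 1 to 7 activation and inhibition genes, 1 to 6 factor genes, 1 to 5 cytokine genes and 1 to 6 substrate genes. Other family genes called numbered 0 with level-dependent scaling, the stricter filter of 5 CPM in 2 libraries (which removes TIMP4), DESeq2 and thinned counts. Factor genes numbered 1 with level-dependent scaling and with either RPKM setting, and cytokine genes 1 with either RPKM setting. Substrate genes numbered 5 with DESeq2, 4 with limma-voom, and 1 with library size alone, level-dependent scaling, the stricter filter, thinned counts and either RPKM setting. The cause was not tested.

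Values near 0 changed sign. MMP14 was 0.031 with level-dependent scaling, 0.018 without cadmium replicate 2 and -0.14 to 0.018 with 1 library left out. TIMP2 was 0.051 with library size alone, 0.095 with level-dependent scaling, 0.031 with the stricter filter, 0.023 with thinned counts and with either RPKM setting, 0.0091 without cadmium replicate 1 and 0.010 without control replicate 1 (-0.034 to 0.010 with 1 library left out). TIMP3 was -0.028 with limma-voom, -0.084 without cadmium replicate 2 and -0.21 without control replicate 2 (-0.21 to 0.32). TIMP1 was 0.28 without control replicate 1 (-0.44 to 0.28). The TIMP share difference, cadmium minus control, was -1.39 percentage points, -0.931 in CPM, and -2.73 to -0.0423 with 1 library left out. Where 1 library of a group remained, it was taken to vary like the other group. Depth limits MMP9, MMP10, MMP7 and MMP12 most.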
